A study of Mus musculus with 10 samples.

Results

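The 10 genes described here encode SET-domain proteins of the MLL (KMT2), SETD1, SETD2, ASH1L and NSD families, most of them histone methyltransferases, together with menin, a subunit of the KMT2A complex that carries no SET domain of its own. They were taken by symbol (Kmt2a, Kmt2c, Kmt2d, Kmt2e, Setd1a, Setd1b, Setd2, Ash1l, Nsd1 and Men1) from a table of 17404 genes, and all 10 passed the filter of at least 11 counts in total that left 16725 genes for testing. The set was selected on the KO against WT difference in these same libraries, with transcript length in view. The fold changes of the 10 genes are therefore a description, carry no test and support nothing by themselves.

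The libraries are bulk RNA-seq of long-term hematopoietic stem cells (LT-HSCs) sorted from mouse fetal livers at E14.5. There were 6 libraries labelled Tnfrsf11aCre; Spi1f/f (KO) and 4 labelled Tnfrsf11a+/+; Spi1f/f (WT). Both groups carried floxed Spi1 alleles, which encode the myeloid factor PU.1, and they differed in the Cre allele at the Tnfrsf11a locus. This locus is active in macrophage precursors, so the model is designed to deplete macrophages around the stem cells, and the WT embryos were littermates on the same C57BL/6 background. The question put to these libraries was how LT-HSCs differ when they develop in a liver short of macrophages.

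SET-domain enzymes transfer methyl groups to lysines of histone tails. KMT2A to KMT2D and the SETD1 enzymes work inside COMPASS complexes and methylate H3K4, a mark of promoters and enhancers. NSD1, ASH1L and SETD2 methylate H3K36, and the trimethylation placed by SETD2 is a mark of transcribed gene bodies. In blood, KMT2A and menin are known for maintaining Hox gene expression in stem cells, and fusion proteins of KMT2A are known for driving leukemia.

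Depth was 5315435 to 30941726 counts on genes in the KO libraries and 7633446 to 18256010 in the WT libraries. The 9 LT-HSC markers Kit, Slamf1, Procr, Cd34, Kdr, Ly6a, Hlf, Mecom and Meis1 were detected in every library, and their summed level lay between 1190 and 1880 CPM (counts scaled to the TMM-normalized size of each library) for KO and between 617 and 1280 CPM for WT, with overlap. Of these markers 3 were called higher in KO by the test given below (Cd34, Hlf and Mecom) and none lower. Over all genes tested, 1.32% were called higher and 2.67% lower. The part of these markers in the values of the 10 genes was not tested. Transcripts of other cells were present. The summed erythroblast markers reached 240000 CPM in WT library 15418 and 95100 CPM in KO library 15415, against 2200 CPM in the lowest library, and 1 of the 10 markers tested was called lower. Macrophage markers summed to 216 to 925 CPM in KO and 91.9 to 708 CPM in WT, with Marco at 0 in all KO libraries and 1 of 12 markers called lower, hepatoblast markers to 100 to 8880 CPM (KO) and 269 to 6080 CPM (WT), and endothelial markers to 1880 to 8030 CPM (KO) and 561 to 5450 CPM (WT). Spi1 itself lay at 9.1, 65.6 and 101 CPM (lowest, median and highest KO library) and at 6.22, 33.8, 50.1 and 7.64 CPM in WT, overlapping between the groups. The gene count also covers exons outside the floxed part, and the Cre acts in another lineage, so Spi1 does not check the labels. In bulk libraries, fewer cells of a type and less RNA per cell cannot be told apart.

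Promoter sequences from RefSeq (GRCm38.p6) were at hand for 6 of the 10 genes, namely Kmt2a, Kmt2c, Kmt2d, Setd1a, Setd2 and Men1. Shown are the 250 bases before the annotated start of Kmt2c and Kmt2d, whose KO and WT libraries did not overlap (below). Also shown are those before the first of several annotated starts of Men1, whose libraries did overlap. CG dinucleotides are in capitals. The windows are chr5:25498784-25499033 (minus strand), chr15:98871206-98871455 (minus strand) and chr19:6334729-6334978 (plus strand), and all are written 5′ to 3′.
Kmt2c: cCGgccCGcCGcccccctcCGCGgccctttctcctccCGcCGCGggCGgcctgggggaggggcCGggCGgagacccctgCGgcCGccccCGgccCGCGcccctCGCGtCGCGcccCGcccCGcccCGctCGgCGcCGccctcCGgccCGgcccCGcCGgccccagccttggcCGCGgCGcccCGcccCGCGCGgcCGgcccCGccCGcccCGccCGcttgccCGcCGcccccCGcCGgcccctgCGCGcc
Kmt2d: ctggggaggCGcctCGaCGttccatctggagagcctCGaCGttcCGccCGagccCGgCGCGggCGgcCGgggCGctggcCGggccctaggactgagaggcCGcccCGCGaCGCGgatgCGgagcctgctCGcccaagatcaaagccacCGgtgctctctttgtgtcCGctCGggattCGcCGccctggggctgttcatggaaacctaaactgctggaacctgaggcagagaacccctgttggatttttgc
Men1: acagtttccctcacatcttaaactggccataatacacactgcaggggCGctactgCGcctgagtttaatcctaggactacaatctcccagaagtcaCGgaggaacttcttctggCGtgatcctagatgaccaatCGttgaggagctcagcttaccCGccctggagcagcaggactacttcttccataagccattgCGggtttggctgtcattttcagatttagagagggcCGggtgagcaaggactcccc
The Kmt2c window held 48 CG dinucleotides and was 91.6% G or C, more CG than 99.8% of the 32851 promoters in the table. The Kmt2d window held 26 CG dinucleotides and the Men1 window shown 8, against a median of 6 over all promoters. Windows before the other annotated starts of Men1, not shown, held 10 and 9. The one with 10 lies before Men1-203, which held 56.6% of the estimated Men1 counts in KO and 44.4% in WT. The window shown lies before Men1-206, which held 8.35% and 5.98%. The windows of Kmt2a, Setd1a and Setd2 held 29, 25 and 31 CG dinucleotides. None of the windows of these 6 genes contained GGAAGT, a motif of sites bound by PU.1, or the longer GAGGAAGT that includes it, on either strand. GGAA alone, which the Kmt2d and Men1 windows shown contain, was not counted. Of all promoters, 19.7% contained GGAAGT and 2.44% GAGGAAGT in a window of the same length, and nothing about the factor follows from letters that are not in this window.

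Kmt2a encodes MLL1, the methyltransferase that works with menin. It lies on GRCm38 chr9:44803355-44881296 (minus strand). Its level in KO was 63.6, 80.8 and 115 CPM in the lowest, median and highest library. In WT it was 39.7, 33.8, 38.5 and 75 CPM in libraries 15416, 15417, 15418 and 15420. The first 3 of these lay below every KO library, and 15420 lay above 3 of the KO libraries, so the groups overlapped. The KO mean was 84.7 ± 21.4 CPM (SD, n = 6) and the WT mean 46.8 ± 19.0 CPM (SD, n = 4), a log2 fold change (KO minus WT) of 0.86 with an SE of 0.28. Without WT library 15420 it was 1.18.

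Kmt2c and Kmt2d encode MLL3 and MLL4, the H3K4 monomethyltransferases of enhancers. Kmt2c (chr5:25271798-25498783, minus strand) had 49.6, 68.1 and 91.9 CPM in the lowest, median and highest KO library. Its WT libraries had 30.6, 40.1, 39.9 and 35.9 CPM, all below every KO library. The difference was 1.95-fold (log2 0.96, SE 0.21). Kmt2d (chr15:98831669-98871204, minus strand) had 89.6, 120.0 and 149 CPM in KO. In WT it had 43.9, 58.1, 51.5 and 20.5 CPM, again without overlap. Kmt2d showed the highest fold change of the 10 genes, 2.74-fold (log2 1.45, SE 0.30), and its KO libraries formed a lower trio at 89.6 to 95.2 CPM (15409, 15412 and 15415) and a higher trio at 144 to 149 CPM (15405, 15406 and 15411).

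Kmt2e encodes MLL5, a SET-domain protein without known methyltransferase activity on H3K4. At chr5:23434441-23504235 (plus strand), it had 91.0, 107 and 132 CPM in KO and 84.8, 74.4, 60.3 and 141 CPM in WT. The highest library of all was WT 15420, and no KO library lay above it. The log2 fold change was 0.26 (SE 0.23), and it was 0.56 without WT 15420 and 0.16 without WT 15418.

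Setd1a and Setd1b encode the catalytic subunits of the SET1 complexes, which place much of the H3K4 trimethylation at promoters. Setd1a (chr7:127776670-127800122, plus strand) had 20, 26.8 and 35.7 CPM in KO and 26.5, 22.2, 21.4 and 13.0 CPM in WT. Setd1b (chr5:123142193-123168629, plus strand) had 10.2, 15.6 and 18.2 CPM in KO and 14.8, 11.9, 6.95 and 10.3 CPM in WT. Both overlapped between groups, with log2 fold changes of 0.40 (SE 0.27) and 0.46 (SE 0.31), and Setd1a stood at 0.23 without WT 15420. Setd1a shares 51.8% of its exonic bases with Gm49388 on the same strand in Gencode vM21, so its counts are uncertain.

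Men1 encodes menin, the scaffold through which KMT2A and KMT2B are brought to chromatin. Men1 (chr19:6334979-6340891, plus strand) had 63.7, 89.4 and 124 CPM in KO and 65.6, 101, 88.6 and 16.6 CPM in WT. It was the most variable of the 10, with a coefficient of variation of 25.7% in KO and 54.9% in WT. Its log2 fold change of 0.45 (SE 0.39) was 0.13 without WT 15420, the lowest library, and 0.71 without WT 15417, the highest.

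Of the H3K36 enzymes, Setd2 encodes the enzyme that trimethylates H3K36 while travelling with RNA polymerase. Setd2 (chr9:110532597-110618633, plus strand) had 76.6, 95.8 and 109 CPM in KO and 72.9, 78.8, 49.5 and 74.6 CPM in WT. In 5 of the 6 KO libraries it was above every WT library, and the log2 fold change was 0.45 (SE 0.19). Ash1l encodes an H3K36 dimethyltransferase that also has a bromodomain and a PHD finger. Ash1l (chr3:88950622-89079375, plus strand) had 64.4, 81.2 and 95.1 CPM in KO and 38.0, 29.9, 25.4 and 29.0 CPM in WT. Its lowest KO library was above its highest WT library, the fold change was 2.64 (log2 1.40, SE 0.20), and leaving out single libraries moved the log2 value between 1.37 and 1.52. Nsd1 encodes the H3K36 mono- and dimethyltransferase mutated in Sotos syndrome. Nsd1 (chr13:55209782-55318325, plus strand) had 109, 136 and 146 CPM in KO and 107, 136, 78.2 and 123 CPM in WT. Its libraries overlapped, and its log2 fold change was 0.26 (SE 0.18), or 0.17 without WT 15418.

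**Figure D1:**
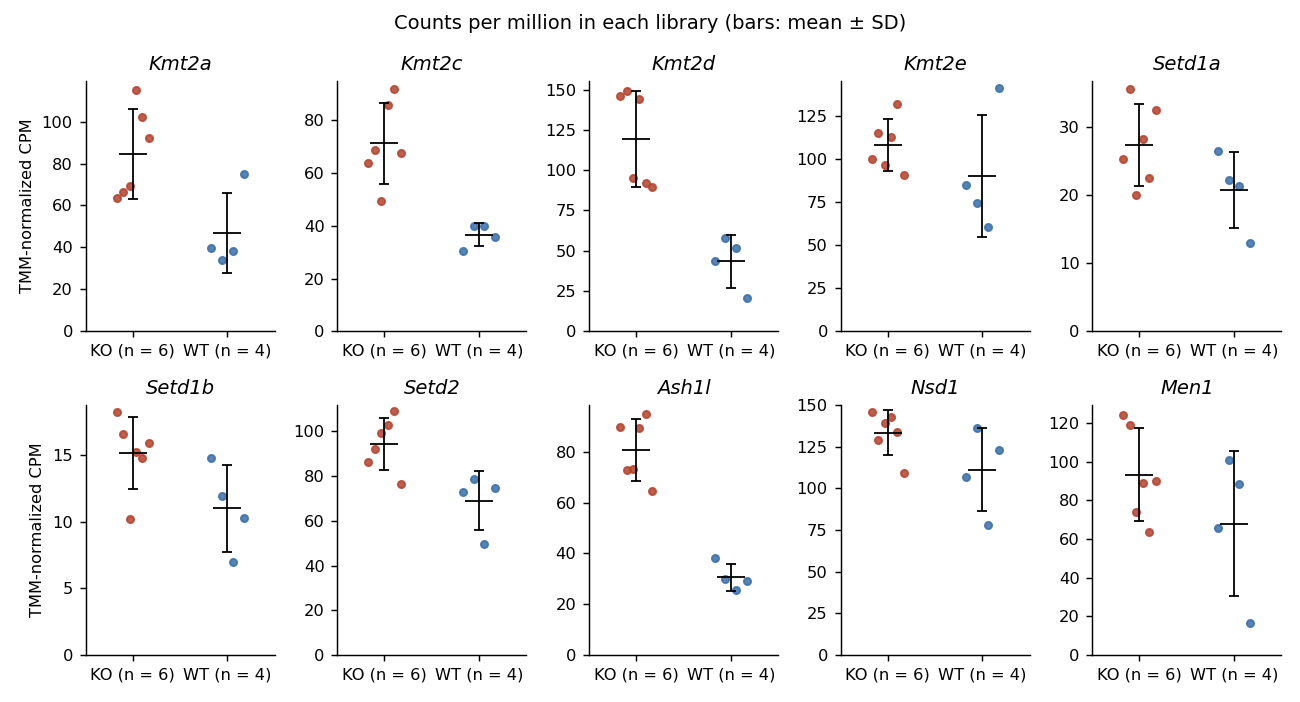
TMM-normalized CPM (y axes, each starting at 0) of the 10 genes in every KO (red, n = 6) and WT (blue, n = 4) library, with the mean and SD as black bars. The red and blue points do not overlap for Kmt2c, Kmt2d and Ash1l, and they overlap for the other genes.

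The log2 fold changes of all 10 genes were above 0, from 0.26 to 1.45 with a median of 0.46, but an offset for transcript length put Kmt2e, Setd1a, Setd1b and Nsd1 below 0 (below). Over all genes tested, 8884 of 16725 were above 0 and the median was 0.06. Past an adjusted p of 0.1 (edgeR's quasi-likelihood test, Benjamini-Hochberg over all genes tested) were 3 of the 10, Kmt2c, Kmt2d and Ash1l, where 1.32% of all genes were called higher and 2.67% lower. The same 3 genes had every KO library above every WT library, as did 2.88% of all genes. Because this contrast selected the genes, nothing is read from these counts. Across all genes the calls were 221 higher and 446 lower with edgeR, 585 and 551 with DESeq2 at the study's fold-change threshold, and 40 and 422 with the length offset, and the smallest adjusted p of any gene in the edgeR fit was 0.0743. None of the 10 genes was called without KO library 15405, 15406, 15411, 15412 or 15415 or without WT library 15416. Over all genes, those fits called 0 higher and 0 lower, apart from 1 higher without KO 15411. Without WT library 15420, Kmt2a joined Kmt2c, Kmt2d and Ash1l, where 225 genes were called higher and 451 lower over all genes. Kmt2c, Kmt2d and Ash1l were also called with DESeq2, which without its fold-change threshold added Kmt2a. With sums of the transcript estimates in place of the gene table Kmt2c was no longer called (log2 0.77), and none of the 10 with the level of Xist, a stand-in for the unlabelled sex of the embryo, as a covariate.

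Summed over the 10 genes, the libraries held 726, 860.0 and 925 CPM (lowest, median and highest) in KO and 524, 587, 460.0 and 539 CPM in WT. The sums of the groups did not overlap, with means of 827 ± 81.2 CPM (SD, n = 6) and 528 ± 52.3 CPM (SD, n = 4). The genes in the sum were selected on this contrast, so nothing is read from its separation. WT library 15418, the one with the most erythroblast transcripts, was the lowest WT library for 5 of the 10 genes, and KO library 15415, the KO library with the most, was the lowest KO library for 5. The libraries next in summed erythroblast markers went the other way. WT 15417 (19100 CPM) was the highest WT library for 5 genes and the lowest for 1. KO 15412 (41600 CPM) was the highest KO library for 4 genes and the lowest for 1. The part of erythroblast transcripts in these values was not tested. Leaving out WT 15418 gave the 10 genes a median log2 fold change of 0.55, and leaving out KO 15415 gave 0.48. Over all genes the median was 0.15 and 0.05 in these fits, against 0.06 with every library kept. WT library 15420 had the highest WT level of Kmt2a and Kmt2e and the lowest of Kmt2d, Setd1a and Men1. In KO the coefficient of variation ran from 10% (Nsd1) to 25.7% (Men1), and in WT from 12.1% (Kmt2c) to 54.9% (Men1).

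Most of these genes are long. Weighted by TPM, the mean transcript length was 19598 bases for Kmt2d, 15284 for Kmt2a, 8386 for Kmt2c, 7453 for Ash1l, 6983 for Nsd1, 6813 for Setd1b and 5470 for Setd1a, which put these 7 in the longest of 5 length classes of equal size (3752 bases or more). Setd2 (2257 bases), Men1 (2190) and Kmt2e (2188) fell in the middle class. Fold changes moved with length over the whole table. The median log2 fold change was −0.30 in the shortest class, −0.07, 0.05 and 0.19 in the classes between, and 0.34 in the longest, where 3.05% of genes were called higher. For the genes of the longest class other than these 7, the median level of each library relative to the mean of all libraries ran from 0.10 to 0.27 on the log2 scale over the KO libraries and from −0.32 to −0.11 over the WT libraries. For the 10 genes the same measure ran from 0.04 to 0.35 over the KO libraries and from −0.67 to −0.20 over the WT libraries. The part of length in the values of single genes was not tested otherwise than by the offset that follows.

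**Figure D2:**
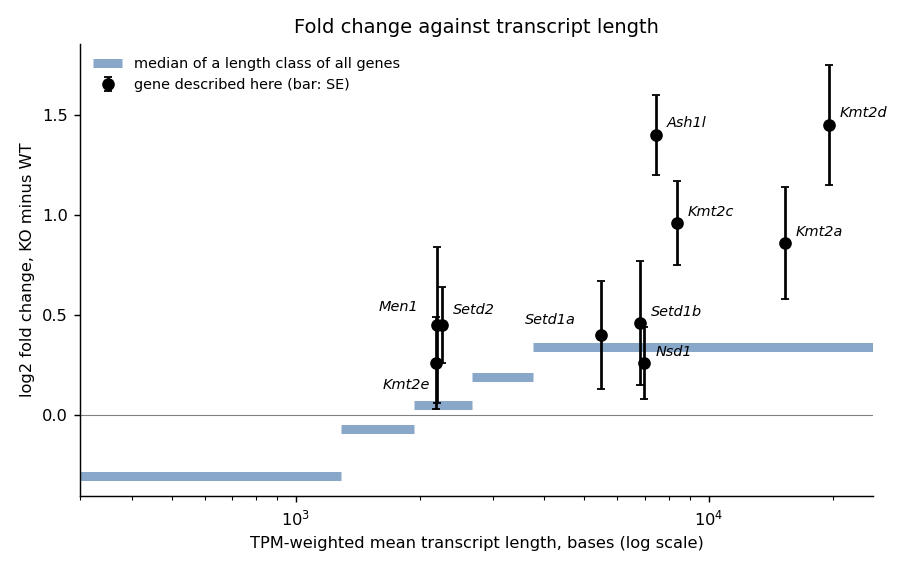
Log2 fold change of each gene (points, y axis, KO minus WT, bars SE) against its TPM-weighted mean transcript length in bases (x axis, log scale, cut at both ends), with the median of each of 5 length classes of all genes as blue bars. Medians climb from −0.30 to 0.34 with length, Nsd1 (0.26) lies below the bar of its class, and Ash1l (1.40), Kmt2d (1.45), Kmt2c (0.96) and Kmt2a (0.86) lie above theirs.

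With a loess offset on transcript length in the same fit, the median of all genes moved from 0.06 to −0.17 and that of the 10 genes from 0.46 to 0.13. Relative to all genes, the 10 lay 0.40 higher without the offset and 0.30 higher with it, and 9 of 10 stayed above the median of all genes, the exception being Nsd1. Genes of the longest class outside the 10 lay 0.28 higher without the offset and 0.06 higher with it. The 10 genes were selected on this contrast, so nothing is read from where they lie. Ash1l changed from 1.40 to 0.83 (SE 0.22) and was the only one of the 10 still past the threshold. Kmt2d changed from 1.45 to 0.62 (SE 0.33), Kmt2c from 0.96 to 0.36 (SE 0.21) and Kmt2a from 0.86 to 0.06 (SE 0.26). Men1 and Setd2, with shorter transcripts, changed less, to 0.29 (SE 0.37) and 0.20 (SE 0.23). Kmt2e, Setd1a, Setd1b and Nsd1 went below 0, to −0.02, −0.06, −0.07 and −0.27.

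**Figure D3:**
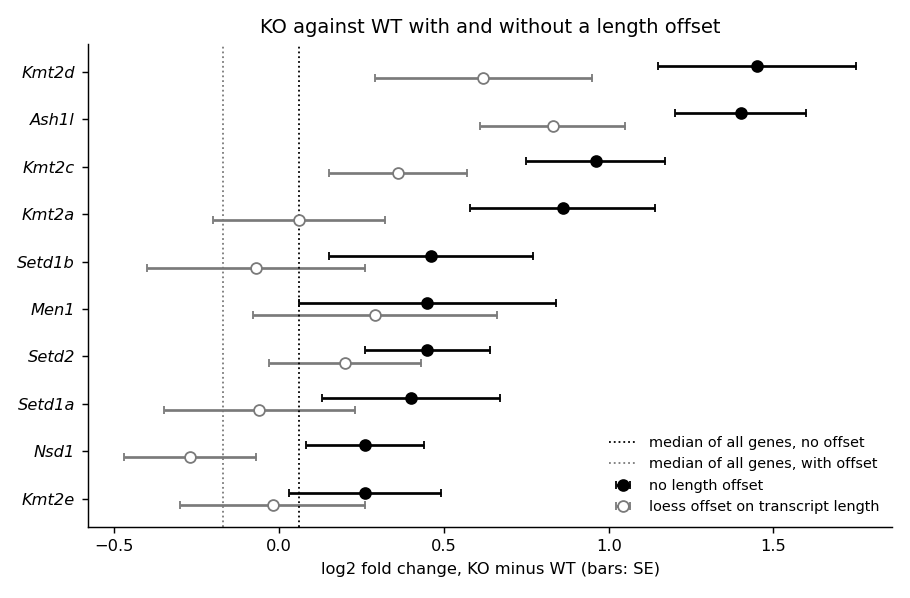
Log2 fold change with SE (x axis, KO minus WT) of the 10 genes (y axis) without a length offset (filled points) and with a loess offset on transcript length (open points), and dotted lines at the medians of all genes (0.06 and −0.17). The offset moves Kmt2a from 0.86 to 0.06 and Ash1l from 1.40 to 0.83.

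The transcript tables show which forms carried these counts. Shares come from the same libraries and reads as the fold changes and are described without a test. Kmt2c counts were divided between the full-length coding transcript Kmt2c-201 (14967 bases, 59 exons) and shorter coding transcripts that cover the 3′ end of the gene, Kmt2c-202 (6486 bases, 20 exons) and Kmt2c-208 (6443 bases, 18 exons). Kmt2c-201 held 43.8% to 55.5% of the estimated counts in KO and 27.0% to 38.8% in WT, without overlap, with means of 49.4% ± 4.88 (SD, n = 6) and 32.0% ± 5.13 (SD, n = 4). Kmt2c-202 held 34.8% ± 6.32 in KO and 46.1% ± 3.17 in WT. On average, more of the estimated counts of Kmt2c thus went to these shorter transcripts in WT libraries than in KO libraries. The estimates divide reads between overlapping transcripts, and the positions of the reads were not examined.

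Kmt2d counts lay on 2 full-length transcripts of nearly the same length, Kmt2d-201 (19823 bases) and Kmt2d-202 (19805 bases). Kmt2d-201 held 27.9% to 79.1% in KO and 24.0% to 26.8% in WT, so that the WT libraries were close together and the KO libraries were spread. For Kmt2a only 2 KO libraries stood apart, with Kmt2a-202 (16470 bases) at 97.2% in KO 15405 and 82.2% in KO 15412. Kmt2a-202 held 33.0% to 35.2% in the other KO libraries, against 32.3% to 35.3% in WT. Its partner transcript Kmt2a-201 is 16461 bases long. Between such near-identical transcripts few reads can decide, and these shares are uncertain.

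Kmt2e and Setd2 counted as genes of middling length because their estimates lay on short forms. Kmt2e-207, a transcript of 2061 bases from the 5′ part of the gene annotated to nonsense-mediated decay, held 64.0% ± 7.43 of the estimated counts in KO and 68.5% ± 6.32 in WT. The full-length coding forms of Kmt2e (at least 90% of the longest) held 23.8% ± 4.27 and 21.6% ± 4.04. Setd2-210, a coding transcript of 2910 bases from the 3′ part, held 52.4% ± 3.71 in KO and 53.7% ± 3.6 in WT, and the full-length Setd2-201 (8350 bases) held 5.86% ± 3.69 and 6.94% ± 5.38. Nsd1 was carried by its full-length Nsd1-201 (12784 bases) at 91.6% ± 2.11 and 90.1% ± 3.44, and Ash1l by Ash1l-201 and Ash1l-202 together at 90% ± 3.9 and 88.9% ± 15.2. Setd1b counts were on Setd1b-204 (8857 bases) apart from retained-intron forms, which held 14.1% ± 6.09 in KO and 4.94% ± 4.1 in WT, with overlap. Men1-203 (2639 bases) led in 9 libraries, but WT 15420, the library with the lowest Men1 level, had 92.5% on Men1-205 (2508 bases).

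**Figure D4:**
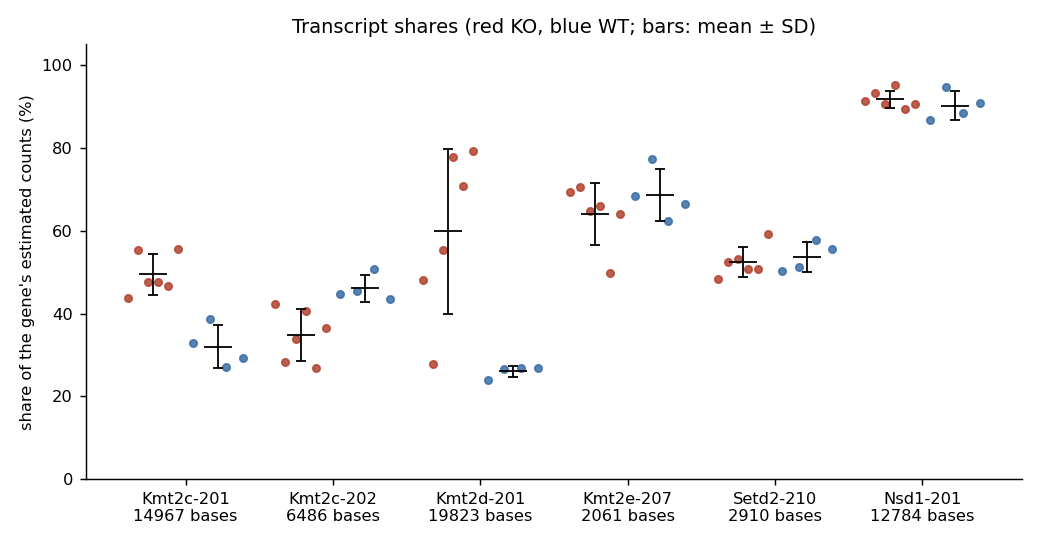
Share of a gene's estimated counts in percent (y axis from 0) on selected transcripts in each KO (red) and WT (blue) library, with mean and SD as black bars. Kmt2c-201 separates KO (43.8% to 55.5%) from WT (27.0% to 38.8%), Kmt2d-201 is spread in KO and tight in WT, and Kmt2e-207, Setd2-210 and Nsd1-201 overlap.

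Levels of different genes were compared per length, as TPM summed over the transcripts of a gene. In order of the mean of log2(TPM + 1) over all 10 libraries, Kmt2e was highest, at 54.7 ± 10.4 TPM in KO (SD, n = 6) and 34.7 ± 15.6 TPM in WT (SD, n = 4), followed by Setd2 (45.3 ± 8.31 and 27.7 ± 9.61) and Men1 (47.9 ± 13.5 and 26.5 ± 17.1). Nsd1 stood at 20.7 ± 4.24 TPM and 13.5 ± 4.21 TPM. Ash1l had 11.8 ± 2.04 TPM in KO and 3.40 ± 1.69 TPM in WT, and Kmt2c 8.86 ± 2.03 TPM and 3.94 ± 0.678 TPM. At the low end were Setd1a (5.58 ± 1.13 and 2.96 ± 1.08), Kmt2a (5.85 ± 1.48 and 2.53 ± 1.44), Kmt2d (6.75 ± 2.42 and 1.80 ± 0.827) and Setd1b (2.54 ± 0.745 and 1.18 ± 0.49).

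Neighbours in this order were compared within libraries by a two-sided exact sign-flip permutation test of log2(TPM + 1) over all 10 libraries, with adjustment over 9 pairs and a threshold of 0.05. Kmt2e exceeded Setd2 in 8 of 10 libraries, by 0.27 ± 0.26 on that log2 scale (exact permutation test, adjusted p = 0.0211). Men1 exceeded Nsd1 by 0.97 ± 0.85 in 9 of 10 libraries (exact adjusted p = 0.0211), and Nsd1 exceeded Ash1l by 1.15 ± 0.56 in 10 of 10 (exact adjusted p = 0.0176). Kmt2c exceeded Setd1a by 0.49 ± 0.36 and Kmt2d exceeded Setd1b by 0.79 ± 0.52, each in 9 of 10 libraries (exact adjusted p = 0.0176 for both). Setd2 and Men1, Ash1l and Kmt2c, Setd1a and Kmt2a, and Kmt2a and Kmt2d did not pass, with exact permutation adjusted p-values of 0.898, 0.571, 0.898 and 0.898. This test takes both genotypes together, and some orders were not the same within them. Ash1l was above Kmt2c in 6 of 6 KO libraries and in 2 of 4 WT libraries. By group means Kmt2d, Kmt2a and Setd1a came in this order in KO and in the opposite order in WT, and Men1 was above Setd2 in KO and below it in WT. Whether these orders differ between the groups was not tested. The places of Kmt2e and Setd2 rest on the short transcripts described above: with counts divided by the longest transcript instead, 3 of 9 neighbouring pairs differed.

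**Figure D5:**
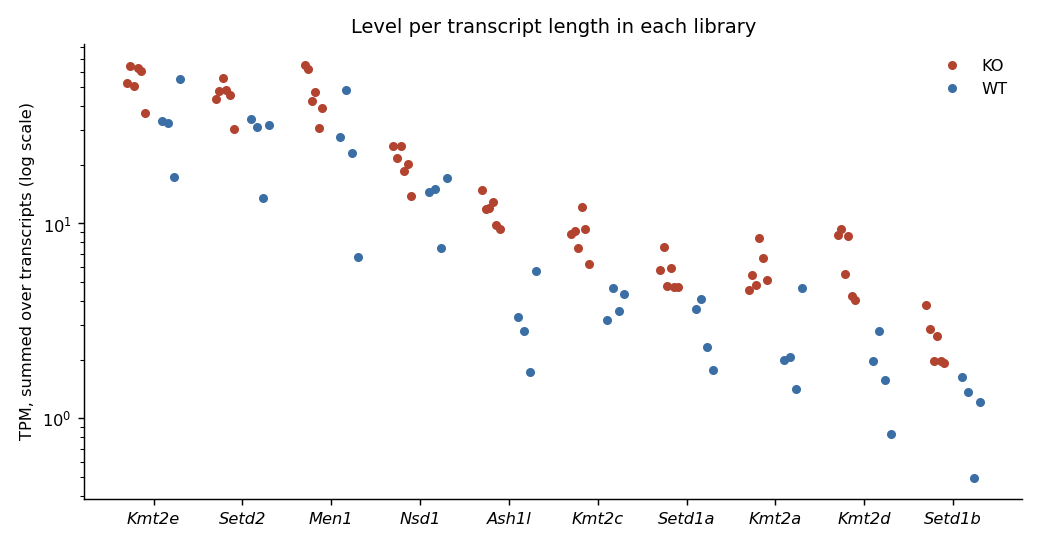
TPM summed over transcripts (y axis, log scale) of each gene (x axis, in order of mean level) in every KO (red, n = 6) and WT (blue, n = 4) library. Kmt2e, Setd2 and Men1 form the upper group and Setd1b lies lowest.

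The genes that work with or against these enzymes were read from the same edgeR fit, with p-values adjusted over all 16725 genes. Of 62 such genes tested in 6 lists, 4 rose (Kdm5b, Hoxa9, Mecom and Eya1) and 2 fell (Kmt5a and Setd6), where 1.32% of all genes were called higher and 2.67% lower. Their median log2 fold change was 0.16, against 0.06 over all genes, and with the length offset it was −0.16, against −0.17. The lists were chosen with earlier results of these data known, so their counts of calls and their medians are a description. None of the 62 was called higher or lower without KO 15405, 15406, 15411, 15412 or 15415 or WT 15416. Over all genes, those fits called 0 higher and 0 lower, apart from 1 higher without KO 15411. Without WT 15418, none of the 62 was called higher and 1 lower, against 209 and 401 over all genes. Without KO 15409, 6 were called higher, against 405 over all genes. Without WT 15417, 3 were called lower, against 532 over all genes. With DESeq2 at the study's threshold 7 of the 62 rose and 2 fell.

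None of the 4 shared COMPASS core subunits (Wdr5, Rbbp5, Ash2l and Dpy30) passed the test. Their median log2 fold change was −0.33, with 1 above 0 and 3 below, and the median was −0.51 with the length offset. Dpy30, needed for full H3K4 methylation, came nearest to the threshold. Dpy30 had 57.5, 65.0 and 70.9 CPM in KO and 160.0, 70.6, 79.1 and 112 CPM in WT (log2 −0.70, SE 0.22, edgeR adjusted p = 0.131). Without WT 15416, its highest library, the value was −0.42 (edgeR adjusted p = 0.304), and without WT 15417 it was −0.85 and past the threshold (edgeR adjusted p = 0.0819), as it was with DESeq2 without a fold-change threshold (adjusted p = 0.0616). Ash2l had a log2 fold change of −0.49 (SE 0.24, edgeR adjusted p = 0.296) and Wdr5 of −0.17 (SE 0.18, edgeR adjusted p = 0.641). None of 12 partners found in some of the complexes but not in all (Kmt2b, other subunits and the protease Tasp1, which cleaves KMT2A) passed either. The median of these 12 was −0.08, or −0.34 with the length offset. Kmt2b, the paralog of Kmt2a, had 25.5, 31.4 and 40.6 CPM in KO and 17.5, 25.1, 20.6 and 19.0 CPM in WT, each KO library above each WT library (log2 0.65, SE 0.23, edgeR adjusted p = 0.159). With the length offset its log2 fold change was 0.38 (edgeR adjusted p = 0.456). Hcfc1, a host cell factor of the SET1 and KMT2A complexes, had 0.39 (SE 0.18, edgeR adjusted p = 0.265), and Pagr1a, of the KMT2C and KMT2D complexes, −0.47 (SE 0.22, edgeR adjusted p = 0.273).

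None of 10 genes around H3K36 methylation passed, and their median was −0.10, or −0.27 with the length offset. Setd5, Supt6 (an elongation factor that binds RNA polymerase) and Nsd2 (the paralog of Nsd1) had log2 fold changes of 0.63, 0.59 and 0.29 with SEs of 0.26, 0.33 and 0.19. Without WT 15420 Setd5 was at 0.93 and past the threshold (edgeR adjusted p = 0.0812), and Supt6 was at 0.30, while without WT 15416 Nsd2 was at 0.19. Among 15 other SET-domain enzymes 2 fell and none rose, where 2.67% of all genes were called lower and 1.32% higher. The median of the 15 was −0.08, or −0.34 with the length offset. Kmt5a, the H4K20 monomethyltransferase, had 44.5, 50.4 and 62.1 CPM in KO and 160.0, 68.3, 84.1 and 106 CPM in WT. All 6 KO libraries were below every WT library, and the log2 fold change was −1.0 (SE 0.23, edgeR adjusted p = 0.0824). Setd6, a methyltransferase of non-histone proteins such as RelA, had 8.29, 11.8 and 21.1 CPM in KO and 45.8, 34.8, 39.3 and 17.4 CPM in WT (log2 −1.43, SE 0.33, edgeR adjusted p = 0.0824). In 5 of 6 KO libraries Setd6 was below every WT library. Ehmt1, an H3K9 methyltransferase, had 0.77 (SE 0.27) and did not pass.

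Among 11 genes of H3K4 and H3K36 demethylation, which are 10 demethylases and the KDM1A cofactor Rcor1, 1 rose. Over all genes, 1.32% were called higher. The list's median was 0.27, and −0.09 with the length offset. Kdm5b, which removes methyl groups from H3K4, had 83.7, 99.8 and 161 CPM in KO and 59.5, 64.8, 51.8 and 61.8 CPM in WT. Every KO library was above every WT library (log2 0.87, SE 0.21, edgeR adjusted p = 0.0824), but with the length offset the value was 0.43 (edgeR adjusted p = 0.338). Kdm2a, an H3K36 demethylase, also separated the groups, at 0.56 (SE 0.17, edgeR adjusted p = 0.110), or 0.21 with the length offset (edgeR adjusted p = 0.574). Kdm1a had −0.51 (SE 0.28, edgeR adjusted p = 0.346), or −0.87 with the length offset and −0.19 without WT 15420.

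Of 10 genes known as targets of KMT2A and menin in blood, 3 rose and none fell. Over all genes, 1.32% were called higher and 2.67% lower. The median log2 fold change of the list was 1.18, or 0.99 with the length offset. Like the other lists, this one was chosen with earlier results of these data known, so its calls and median are a description. Hoxa9, a homeobox factor of stem and progenitor cells, had 9.42, 47.1 and 72.1 CPM in KO and 4.93, 17.0, 12.6 and 6.65 CPM in WT. It was above every WT library in 5 of 6 KO libraries, the exception being 15409 (log2 2.09, SE 0.53, edgeR adjusted p = 0.0836). Mecom, which encodes the stem cell factor EVI1, had 47.2, 112 and 201 CPM in KO and 9.78, 45.3, 30.7 and 45.1 CPM in WT, without overlap (log2 1.83, SE 0.46, edgeR adjusted p = 0.0836). Eya1, a transcriptional coactivator, was low throughout, with 2.38, 10.3 and 19.6 CPM in KO and 3.11, 1.95, 0.813 and 0.425 CPM in WT (log2 2.73, SE 0.70, edgeR adjusted p = 0.0841). With the length offset Hoxa9 kept its call (1.94, edgeR adjusted p = 0.0843), and Mecom (1.47, edgeR adjusted p = 0.117) and Eya1 (2.36, edgeR adjusted p = 0.109) lost theirs. Mecom and Meis1 are also among the LT-HSC markers, 3 of which were called higher and whose sums (1190 to 1880 CPM in KO, 617 to 1280 CPM in WT) are given above, and the part of the stem cell content of the libraries in these values was not tested.

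The genes whose pattern over the 10 libraries was most like the mean of the 10 described here included Diaph2, Relch, Itgav and Thap2. Likeness was the root mean square difference of standardized log2 CPM, taken over 11720 other genes with a mean of at least 40 counts, and it was 0.35, 0.36, 0.36 and 0.37 SD for these 4, against a median of 1.15 SD. That mean carries the KO and WT difference on which the 10 genes were selected.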

How the data were processed

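Total RNA of sorted fetal liver LT-HSCs (E14.5) was amplified by SmartSeq2 and sequenced as single-end reads without molecular identifiers. Per the labels and methods, the authors used bcl2fastq 2.20 and kallisto 0.44.0 with Gencode vM16 (GRCm38). For each library the authors deposited estimated counts and TPM per transcript, and 1 table of counts per gene symbol, in which 97.5% of values were within 1 count of the transcript sums. Counting used no strand. Kmt2e and Ash1l share 9.31% and 2.37% of their exonic bases with Srpk2 and Dap3 on the opposite strand, and reads there cannot be told apart.

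Groups were taken from the genotype labels (6 KO, 4 WT). After a filter of 11 or more counts over all libraries, genes were fitted with edgeR 4.0.16 (TMM, robust quasi-likelihood) in R 4.3.3, with Benjamini-Hochberg adjustment over all genes and a threshold of 0.1, as in the study. The test of the study, DESeq2 (1.42.0) against a log2 change of 0.1, was an alternative. The fit was tested on simulated data. Length is the TPM-weighted mean over transcripts, and the offset a loess curve of span 0.3. Symbols were matched to Gencode vM21 (17205 of 17404, 16620 of them directly) for positions and transcript names. TPM levels were tested on log2(TPM + 1). Depth limits precision, and SEs cover the spread between libraries, which the study gives as separate embryos.

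The 10 genes, the partner and marker lists and the alternatives were chosen with earlier results of these data known. Named are the 10 genes, in each partner list those past the threshold and otherwise the smallest p-values up to 3 genes, the 5 genes of most similar pattern, and markers at 0. Of the genes under this rule and the LT-HSC markers, 1 each is not reported here. The alternatives were DESeq2, other normalizations and filters, length offsets, transcript sums, the level of Xist, a threshold of 0.05 and each library left out. A second, robust length offset was chosen after seeing the data. Of the erythroblast list, 2 symbols were not used here, being absent from the gene table. Python 3.11.15 with NumPy 2.4.6 and pandas 2.3.3 served for the rest.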

Additional observations from a re-analysis of the deposited data

Results flagged for a closer look

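In 1 of 22 groups of values looked at (10 genes and their sum, in KO and in WT), a library stood apart from the others of its group by the size of its gap. Kmt2a was at 75 CPM in WT library 15420, while the other WT libraries lay at 33.8 to 39.7 CPM, and this gap made up 0.856 of the range of the 4 libraries. Chance alone gives about 1 such group in 20. The same library had the highest WT level of Kmt2e (141 CPM) and the lowest of Men1 (16.6 CPM) and Kmt2d (20.5 CPM).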

How the results depend on the processing

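The log2 fold changes of Kmt2a, Kmt2c, Kmt2d, Setd2, Ash1l and Men1 stayed above 0 under all 22 alternatives run. With the length offset Kmt2e (−0.02), Setd1a (−0.06), Setd1b (−0.07) and Nsd1 (−0.27) turned below 0, and with the robust length offset Setd1a (−0.02), Setd1b (−0.04) and Nsd1 (−0.24) did, while the median of all genes was −0.17 and −0.08. All genes called higher numbered 221, or 585 and 998 with DESeq2 with and without its fold-change threshold, 40 and 35 with the length and robust length offsets, and 0 with the Xist covariate or an adjusted p below 0.05. Genes called lower numbered 446, or 1145 with DESeq2 without the threshold, 230 with the robust offset, and 0 with the Xist covariate or an adjusted p below 0.05. Of the 10 genes 3 were called higher, or 4 with DESeq2 without the threshold, 2 with transcript sums, 1 with each length offset and 0 with the Xist covariate or an adjusted p below 0.05. Of partner genes 4 were called higher, or 7 and 9 with DESeq2 (with and without the threshold), 1 with each length offset, 2 with transcript sums, and 0 with the Xist covariate or an adjusted p below 0.05, and 2 were called lower, or 1 with the robust offset and 0 with the Xist covariate or an adjusted p below 0.05. Where edgeR called 0, genes at an unadjusted p under 0.05 numbered 914 higher and 1549 lower with the Xist covariate, and 1438 and 1701 in the fit without it. Leaving out 1 library gave 0 to 405 genes higher and 0 to 598 lower over all genes, 0 to 4 of the 10 genes higher, and 0 to 6 partner genes higher and 0 to 3 lower. With 1 library left out, at least 1071 genes higher and 1316 lower had an unadjusted p under 0.05. Neighbouring levels that differed numbered 5, or 3 with counts per longest transcript. The cause of these shifts was not tested, apart from the stricter threshold, which lies under the smallest adjusted p of 0.0743. The replicate numbers of the KO and WT libraries are not shared and the sample labels used here give no litter, so no analysis paired by litter was made. Among the partner genes named, Eya1 had the lowest levels and the largest SE (0.70).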
